A study of Mus musculus with 2 samples.

Results

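Semaphorins, Slits and netrins are guidance cues that steer growing axons and, through shared receptors, migrating cells and sprouting vessels. Their 46 genes on the array (27 ligand and 19 receptor genes) were followed in 2 samples of mouse Flk1+Tie2+ cells sorted from embryoid bodies. They were picked by symbol as all genes named Sema3 to Sema7, Plxn, Slit, Robo, Ntn and Unc5 followed by their letter or number, with Dcc and Neo1, a rule that uses no signal. These genes hold 103 of the 45037 probe sets in the table and 46 of the 18193 genes it names.

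Semaphorins signal through plexins. The secreted class 3 proteins mostly need a neuropilin as co-receptor, whereas the membrane-bound classes bind plexins directly. Slits bind some of the Robo receptors, and netrins bind Dcc, Neo1 and the Unc5 proteins, with attraction through Dcc and repulsion through Unc5. In vessels Plxnd1, Robo4 and Unc5b are the best known of these receptors, and they take part in vessel patterning, sprouting and barrier stability.

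Both samples were derived from A2lox.Mesp1 embryonic stem cells of 129/Ola background, a single engineered line in which doxycycline (dox) turns on Mesp1, a transcription factor of early cardiovascular mesoderm. Embryoid bodies were grown at 15000 cells/mL in 10% FCS, a serum, and Flk1+Tie2+ cells were sorted on day 5. The no dox sample was untreated, and the dox sample had received 250 ng/mL of dox on day 2, with exposure up to day 4 by its description. Both carried the inducible transgene, so Mesp1 and dox itself cannot be told apart. Each sample is 1 array, so no replicate error, test or p-value exists for any difference given here, and each compares this pair of samples only.

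The values are signal intensities in arbitrary linear units. A gene was read from its brightest probe set and counted as measurable (past the signal filter) when at least 1 of its signals reached the median of that array, which was 112 without dox and 127 with dox. Differences are dox minus no dox on the log2(signal + 16) scale, folds are taken from it, and the added 16 understates the change of dim genes. Probe sets of the same gene are the only repeat readings. Over all genes with several past the filter they scattered around their gene's mean with a pooled SD of 0.38 log2 units, and over 22 probe sets of 8 guidance genes with an SD of 0.46.

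Mesp1 gave signals of 2433 and 10977 (log2 difference 2.17). Whether its probe set reads the transgene, the endogenous gene or both could not be checked. The sort genes Kdr, which codes for Flk1, and Tek, which codes for Tie2, each differed by 0.08, and all 14 endothelial markers were past the filter with a median of -0.16. Among them Eng was 2.40-fold higher, Cldn5 was 2.63-fold lower and 12 lay within 2-fold. Markers of some other cells moved with dox. At 2-fold or more, 9 of 13 mesenchyme and smooth muscle markers were higher and 0 lower, or 5 of the 9 past the filter on both arrays, and their summed signal went from 6215 to 42365. For 12 cardiomyocyte markers the sum went from 2273 to 8101, and 6 of the 8 past the filter were 2-fold or more higher, or 3 of 5 on both arrays. For 11 blood cell markers it went from 12019 to 7238, with 4 of 10 past the filter 2-fold or more lower, or 2 of 8 on both arrays. The markers that passed on 1 array alone could pass only by being high there. No marker past the filter differed 2-fold in the neural and neural crest list (6 genes, 1 higher and 5 lower, median -0.38, summed signal 2931 to 2238), the endoderm list (3 genes, median 0.04) or the pluripotency list (4 genes, median -0.12). Among the mesenchyme, cardiomyocyte and blood markers Cnn1 without dox was the only one at the floor of 1, while Nppa lay at 8.22 and 8.16. The part of these markers in the differences below was not tested, and fewer cells of a type and less RNA per cell cannot be told apart in bulk samples.

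Among the guidance genes 4 were 2-fold or more higher with dox, Robo3, Plxna2, Slit3 and Robo4, and none was 2-fold lower. Of the 46 genes 29 were past the signal filter, 27 on both arrays and 2, Robo3 and Slit3, on the dox array alone, so that these 2 could pass only by being higher there. Over all 11794 genes past the filter 5.69% were 2-fold or more higher (671 genes) and 2.06% were 2-fold or more lower (243 genes), or 529 and 402 genes when both arrays were scaled to the same median. By any amount 20 guidance genes were higher and 9 lower, beside 55.6% of all genes that were higher. With the filter on both arrays the count was 2 of 27, Plxna2 and Robo4, beside 3.82% of all genes (and 1.54% on the lower side, where there was no guidance gene). Of the 4 genes past 2-fold 3 code for receptors. Of 15 receptor genes past the filter 11 were higher and 4 lower with a median of 0.61 (0.50 with the filter on both arrays), and of 14 ligand genes 9 were higher and 5 lower with a median of 0.16 (0.15), while the median of all genes was 0.05.

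**Figure D1:**
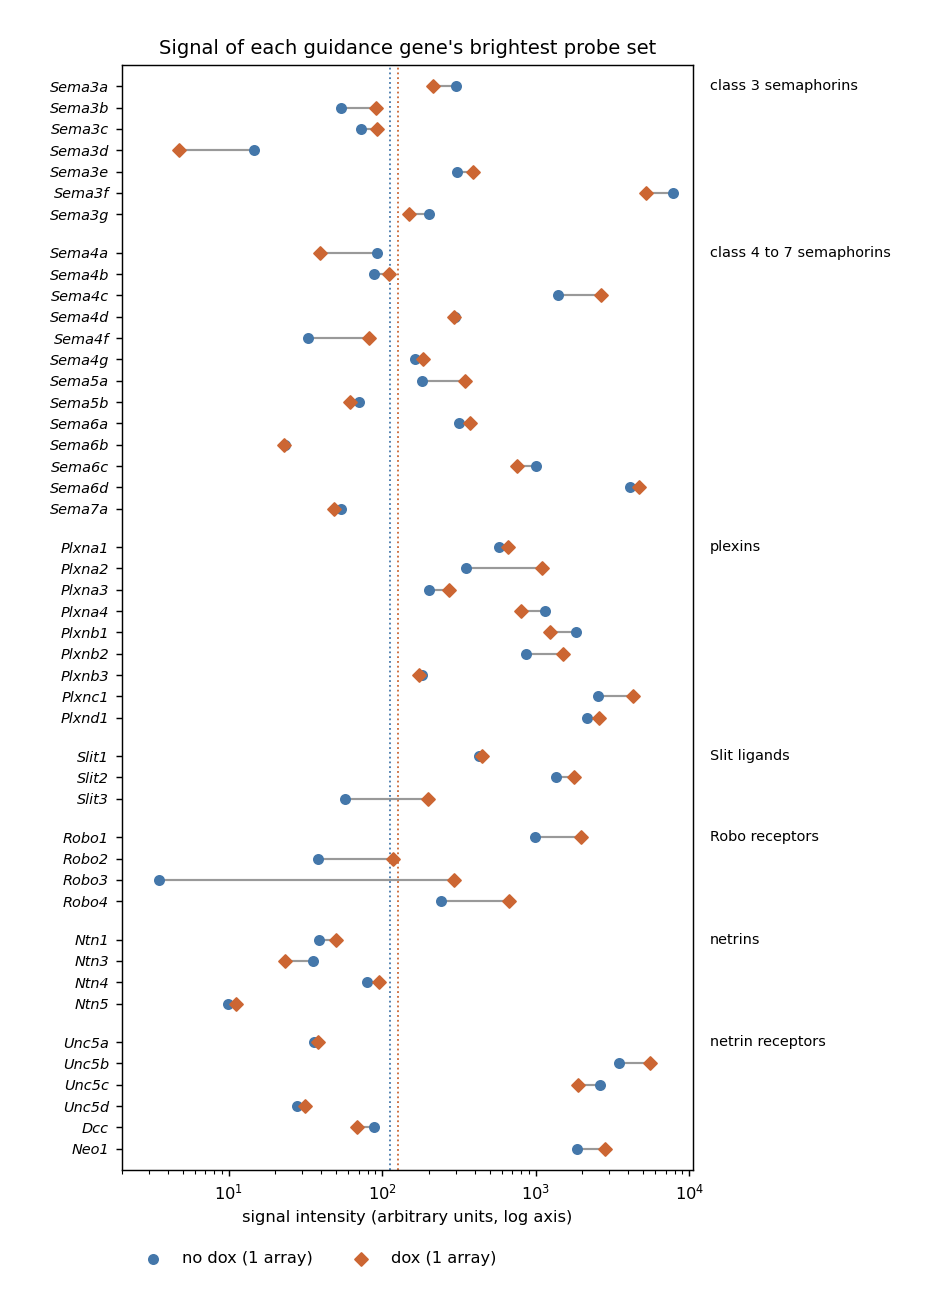
Signal of the brightest probe set of each of the 46 guidance genes on the no dox array (circles) and the dox array (diamonds), on a log axis in arbitrary units, with 1 array per condition and no error bars. Dotted lines mark the array medians of 112 and 127, and the widest gaps are those of Robo3 (3.48 to 292), Slit3, Robo2 and Plxna2.

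The 250 bases upstream of the annotated start are shown for these 4 genes, because they are the guidance genes past 2-fold. They come from RefSeq on the build GRCm38.p6, are written 5′ to 3′ on the gene's strand and end at the base before the start. Capitals mark each CANNTG, the E-box that basic helix-loop-helix factors such as Mesp1 can bind, which reads the same on both strands.

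Plxna2: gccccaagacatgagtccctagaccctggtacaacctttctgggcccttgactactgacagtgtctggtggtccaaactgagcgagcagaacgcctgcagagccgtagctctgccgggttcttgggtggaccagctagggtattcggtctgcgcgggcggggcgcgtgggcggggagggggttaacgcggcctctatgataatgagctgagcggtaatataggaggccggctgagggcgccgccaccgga

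Slit3: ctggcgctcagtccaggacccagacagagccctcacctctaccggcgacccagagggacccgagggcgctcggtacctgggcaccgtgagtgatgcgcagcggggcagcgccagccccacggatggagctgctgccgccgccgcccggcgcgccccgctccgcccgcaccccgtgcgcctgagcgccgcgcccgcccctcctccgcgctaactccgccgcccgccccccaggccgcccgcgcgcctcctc

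Robo3: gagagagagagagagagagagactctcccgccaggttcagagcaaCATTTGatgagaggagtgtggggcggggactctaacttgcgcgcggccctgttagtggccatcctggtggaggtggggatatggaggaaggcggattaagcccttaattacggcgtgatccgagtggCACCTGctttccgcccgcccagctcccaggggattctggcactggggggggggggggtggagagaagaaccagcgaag

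Robo4: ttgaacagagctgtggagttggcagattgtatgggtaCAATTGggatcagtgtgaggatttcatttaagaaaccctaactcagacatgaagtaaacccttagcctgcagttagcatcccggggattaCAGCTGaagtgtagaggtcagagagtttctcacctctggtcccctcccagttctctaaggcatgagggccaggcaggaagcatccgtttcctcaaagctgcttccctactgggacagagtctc

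The window of Plxna2 lies at chr1:194619579-194619828 on the plus strand and that of Slit3 at chr11:35121206-35121455 on the plus strand, and neither holds a CANNTG. The windows of Robo3 at chr9:37433176-37433425, on the minus strand, and Robo4 at chr9:37401722-37401971, on the plus strand, hold 2 each. In Robo3 they begin 205 and 78 bases before the start, and in Robo4 213 and 123 bases before it. A CANNTG is common in such windows, being present in 66.2% of all 32851 windows of this length. Of the guidance genes 37 had a window, and 26 of their 50 windows (52.0%) held one. The core GGAA of ETS factor sites, counted on both strands, occurs 3 times in Robo4, 2 times in Robo3 and in neither of the others, and 93.4% of all windows hold it. The string GATAA, the core of GATA factor sites, occurs once in Plxna2 and in none of the other windows, beside 22.6% of all windows on either strand. The windows also differ in composition, with a GC content of 78.8% for Slit3, 62.8% for Plxna2, 61.2% for Robo3 and 49.6% for Robo4 beside a median of 52.4%. These matches describe letters in a window and were not set against the array values. Robo3 and Robo4 are direct neighbours in the RefSeq table, with no gene listed between them, and their strands face each other.

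The Robo receptors had a family median of 1.41 over their 3 genes past the filter. It was 1.19 over the 2 genes past it on both arrays, Robo1 and Robo4. Robo4, the Robo of endothelium, gave 241 without and 667 with dox, both above the array medians. That is 2.65-fold higher (log2 difference 1.41) by its only probe set, and 409 of the 11794 genes past the filter had a larger difference. Robo1, a widely used Slit receptor, had signals of 986 and 1955, 1.97-fold higher (0.98) and so just under the 2-fold line. The other probe sets of Robo1 were dim and differed little, with signals of 103 and 102 for one and 4.98 and 2.59 for another. Robo2, a close relative of Robo1, was read by a single probe set at 38.0 and 118, below the median on both arrays, and its log2 difference of 1.32 was therefore not counted.

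Robo3, which in the nervous system controls when commissural axons cross the midline, had the largest difference of the guidance genes by brightest probe sets, but its probe sets opposed each other. The brightest read 3.48 without and 292 with dox, 15.8-fold higher (3.98), and 27 genes past the filter had a larger difference. The other read 41.0 and 11.6, a log2 difference of -1.05, and was below the median on both arrays. The signal of the brighter probe set without dox lies close to the table's floor of 1, so the size of its fold depends on the added constant, with a log2 difference of 6.03 for a constant of 1 and 2.40 for a constant of 64. Averaging over all probe sets of a gene gave 1.47 for Robo3, below the 1.55 of Slit3 and next to the 1.46 of Plxna2, so its first place was lost. The direction for Robo3 thus rests on 1 probe set.

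The Slit ligands differed among themselves. Slit3 gave 57.4 without and 199 with dox by its only probe set, 2.93-fold higher (1.55), from below the array median to above it, and 1.12 in log2 units with a constant of 64. Slit2, the Slit most often studied in vessels, had signals of 1342 and 1780 (0.40), and its dim other probe sets gave 0.34 and -0.24. Slit1 stayed level at 425 and 443 (0.06), and its sign turned under both other scalings, to -0.05 after quantile normalization and -0.12 after scaling to the same median. Among the Slit and Robo genes past the filter Slit3, Robo3 and Robo4 were thus 2-fold or more higher, and Slit1, Slit2 and Robo1 lay within 2-fold. Slit3 and Robo3 passed on the dox array alone. With the filter on both arrays 0 of 2 Slit genes and 1 of 2 Robo genes were 2-fold or more higher, beside 3.82% of all genes.

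Plexins, the semaphorin receptors, were all past the filter on both arrays, 9 of 9. By their brightest probe sets 6 were higher, 3 lower and 1 was 2-fold or more higher, with a family median of 0.24 (0.06 after scaling to the same median, beside -0.13 for all genes). Plxna2, a class A plexin that binds Sema6a and, with neuropilins, class 3 semaphorins, gave 349 without and 1094 with dox, 3.04-fold higher (1.60). Its other probe sets read 217 and 529 (1.23), 164 and 255 (0.59), and 27.9 and 221 (2.43). All 4 probe sets of Plxna2 were higher with dox, and 3 of them exceeded 2-fold, although they spread over 1.84 log2 units. A larger difference was found for 327 genes past the filter.

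Plxnc1, the receptor of Sema7a, was the other plexin that had probe sets past both the signal filter and 2-fold. Its brightest probe set read 2546 without and 4274 with dox, 1.67-fold higher (0.74). The other probe sets past the filter read 1865 and 4083 (1.12), 329 and 626 (0.90), and 281 and 684 (1.24). All 4 were higher, and whether Plxnc1 counted as 2-fold higher depended on which was read. Plxnb2, a receptor of class 4 semaphorins, was higher by its only probe set at 863 and 1492 (0.78). Plxnd1, the endothelial receptor of Sema3e, differed little at 2162 and 2559 (0.24).

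The remaining plexins lay closer to even or were lower. Plxna1 (572 and 659, 0.20) and Plxna3 (202 and 271, 0.40) were slightly higher, and Plxnb3 was level at 181 and 172 (-0.07). Plxnb1, the receptor of Sema4d, was lower at 1830 and 1240 (-0.56), and its other probe set was lower too (-0.19). For Plxna4 the probe sets disagreed, since the brightest read 1150 and 794 (-0.53) and the other, also past the filter, 85.5 and 162 (0.81). A second probe set of Plxna1, below the filter at 38.9 and 8.43 (-1.17), also went against its brightest.

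**Figure D2:**
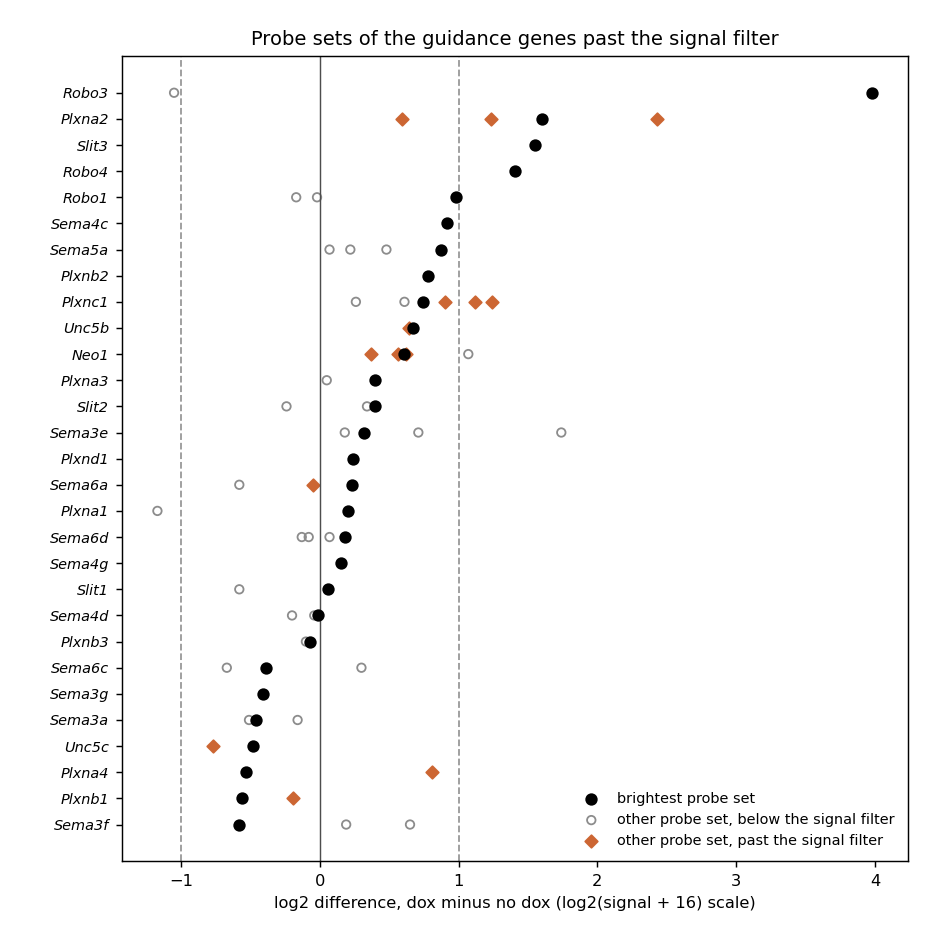
Log2 difference, dox minus no dox, of every probe set of the 29 guidance genes past the signal filter, ordered by the brightest probe set (black). Diamonds are other probe sets past the filter and open circles those below it, dashed lines mark 2-fold, and the probe sets of Plxna2 spread from 0.59 to 2.43 while those of Robo3 lie at 3.98 and -1.05.

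None of the 20 semaphorin genes, the ligands of the plexins, was 2-fold higher or lower among the 11 that passed the filter. Their median was 0.15 with 6 higher and 5 lower, and it turned to -0.01 after quantile normalization and -0.02 after scaling to the same median. The secreted class 3 members past the filter were mostly lower. Sema3f, which repels axons through Nrp2, gave 7775 without and 5207 with dox, 1.49-fold lower (-0.58), by a probe set whose name marks possible cross-hybridisation. Its dim other probe sets were higher, at 25.5 and 49.2 and at 82.9 and 96.5. Sema3a, the ligand of Nrp1 and the class A plexins, read 300 and 213 (-0.46), with all 3 of its probe sets lower. Sema3g, known from arterial endothelium, read 202 and 148 (-0.41). Sema3e, the ligand of Plxnd1 in vessels, was the exception at 308 and 389 (0.32), with its other 3 probe sets higher too but below the filter, among them 13.6 and 83.1 (1.74).

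The membrane-bound semaphorins were mostly close to even, apart from Sema4c and Sema5a. Sema4c, a ligand of Plxnb2, read 1398 without and 2661 with dox, 1.89-fold higher (0.92). Sema5a, which carries thrombospondin repeats, read 181 and 344, 1.83-fold higher (0.87), with its 3 dim probe sets between 0.07 and 0.48. Both lay just within 2-fold. Sema6d, a ligand of Plxna1 in the developing heart, read 4119 and 4672 (0.18), and Sema4g read 164 and 184 (0.15), 2 differences that vanished or turned after scaling to the same median. Sema4d, the ligand of Plxnb1, was level at 295 and 292 (-0.01), and Sema6a, a ligand of Plxna2 and Plxna4, read 314 and 372 (0.23) by its brightest probe set and 244 and 235 (-0.05) by another past the filter. Sema6c was lower at 996 and 756 (-0.39).

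For some ligand and receptor pairs both genes passed the filter and can be set side by side. Sema4c and its receptor Plxnb2 were both higher, with log2 differences of 0.92 and 0.78. Plxna2 was higher by 1.60 while its ligand Sema6a differed by 0.23. Sema4d differed by -0.01 where Plxnb1 was lower by -0.56, and Sema3e and Plxnd1 differed by 0.32 and 0.24. For Plxnc1 no ligand could be set beside it, as Sema7a stayed below the array medians at 53.8 and 48.1. These pairs are textbook pairs and not an exhaustive list.

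The netrins themselves gave no signal at the array median, while 3 of their 6 receptors did. Ntn1, the classical netrin, read 38.7 and 49.8, Ntn3 35.2 and 23.3, Ntn4, a netrin of basement membranes, 78.8 and 95.2, and Ntn5 9.84 and 11.1. Unc5b, the Unc5 receptor of endothelium, read 3502 without and 5577 with dox, 1.59-fold higher (0.67), and its other probe set read 958 and 1502 (0.64). Neo1, which also binds repulsive guidance molecules, read 1850 and 2832, 1.53-fold higher (0.61), by a probe set whose name marks possible cross-hybridisation. Its other 3 probe sets past the filter were higher by 0.37 to 0.62. Without probe sets so marked the difference of Neo1 was 0.37. Both probe sets of Unc5c were lower instead, at 2634 and 1885 (-0.48) and at 406 and 231 (-0.77). Thus Unc5b and Neo1 were higher and Unc5c lower, each within 2-fold and with every probe set past the filter on the same side. Dcc (87.5 and 68.6), Unc5a (35.6 and 38.3) and Unc5d (27.7 and 31.4), receptors best known from neurons, stayed below the medians.

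In all, 17 guidance genes were below the median on both arrays and entered no count made with the signal filter. Besides the 4 netrins, Dcc, Unc5a, Unc5d, Robo2 and Sema7a, these were the secreted Sema3b, Sema3c and Sema3d and the membrane-bound Sema4a, Sema4b, Sema4f, Sema5b and Sema6b. The arrays carry no detection calls here, so a signal under the median does not show that a gene is silent. Of these genes Sema4f (32.6 and 81.6, 1.01) and Robo2 also had a log2 difference past 1, and Sema4a (91.5 and 39.3, -0.96) came closest on the lower side. The other probe sets of Sema4f and Sema4a had the opposite sign.

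**Figure D3:**
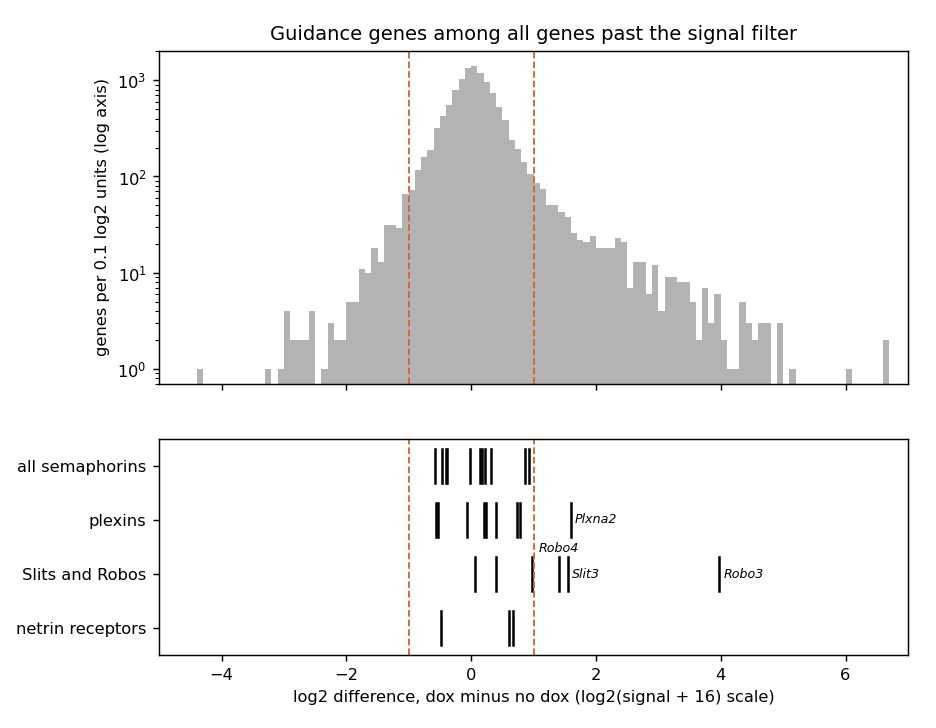
Number of genes per 0.1 log2 units of difference, dox minus no dox, among the 11794 genes past the signal filter (top, log axis), and the 29 guidance genes past it as ticks by family (bottom). Dashed lines mark 2-fold, and the named ticks to the right of them are Plxna2 at 1.60, Robo4 at 1.41, Slit3 at 1.55 and Robo3 at 3.98.

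Agreement between probe sets could be checked for 8 guidance genes with several past the filter. All probe sets were higher for 4 of them (Neo1, Plxna2, Plxnc1 and Unc5b) and lower for 2 (Plxnb1 and Unc5c), and they went both ways for Plxna4 and Sema6a. Of 43 probe sets past the filter 8 differed upward by 2-fold or more and 0 downward, beside 5.59% and 2.12% of the 20451 named probe sets past it. Some of the 8 passed on the dox array alone, where they were high, and with the filter on both arrays 5 of 38 differed upward and 0 downward, beside 3.68% and 1.53% of 18530 named probe sets. Under the first filter Plxna2 supplied 3 of the 8, Plxnc1 2, and Robo3, Robo4 and Slit3 1 each.

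Partners of these receptors and ligands at the cell surface included genes past 2-fold in both directions. Of 15 co-receptors and other surface partners past the filter (of 24 listed) 2 were 2-fold or more higher and 1 was lower. Over all genes past the filter 5.69% were 2-fold or more higher and 2.06% lower. The median of the partners was 0.37, or 0.28 over the 14 past the filter on both arrays, beside 0.05 for all genes. Flrt2, a ligand of Unc5 receptors, read 1861 and 4996, 2.67-fold higher (1.42), with its other probe sets at 1.17 and 1.31, and Flrt3 of the same family read 1384 and 2768 (0.99). Nrp1, the co-receptor of Sema3a, read 5233 and 10992, 2.10-fold higher (1.07), and its other probe sets ranged from -0.18 to 1.54. Nrp2, the co-receptor of Sema3f, read 3471 and 4912 (0.50). L1cam, an adhesion molecule that associates with Nrp1, was 2.12-fold lower at 387 and 174 (-1.08), although a dim probe set gave 0.32.

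Of the 39 cytoplasmic effectors past the filter (45 listed, 42 on the array) none differed 2-fold in either direction, and their median was 0.11 beside 0.05 for all genes. The largest differences were those of Dpysl3, a collapsin response mediator (4087 and 2262, -0.85, with its other probe sets at -0.83 and -0.66), and the kinase Fes (249 and 395, 0.63). Farp2, an exchange factor bound to class A plexins, read 120 and 189 (0.60). Mical1, an oxidase that disassembles actin downstream of plexins, read 843 and 1264 (0.57). The Slit-Robo GTPase activating proteins Srgap1 (0.46) and Srgap2 (0.06) lay within 2-fold as well.

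**Figure D4:**
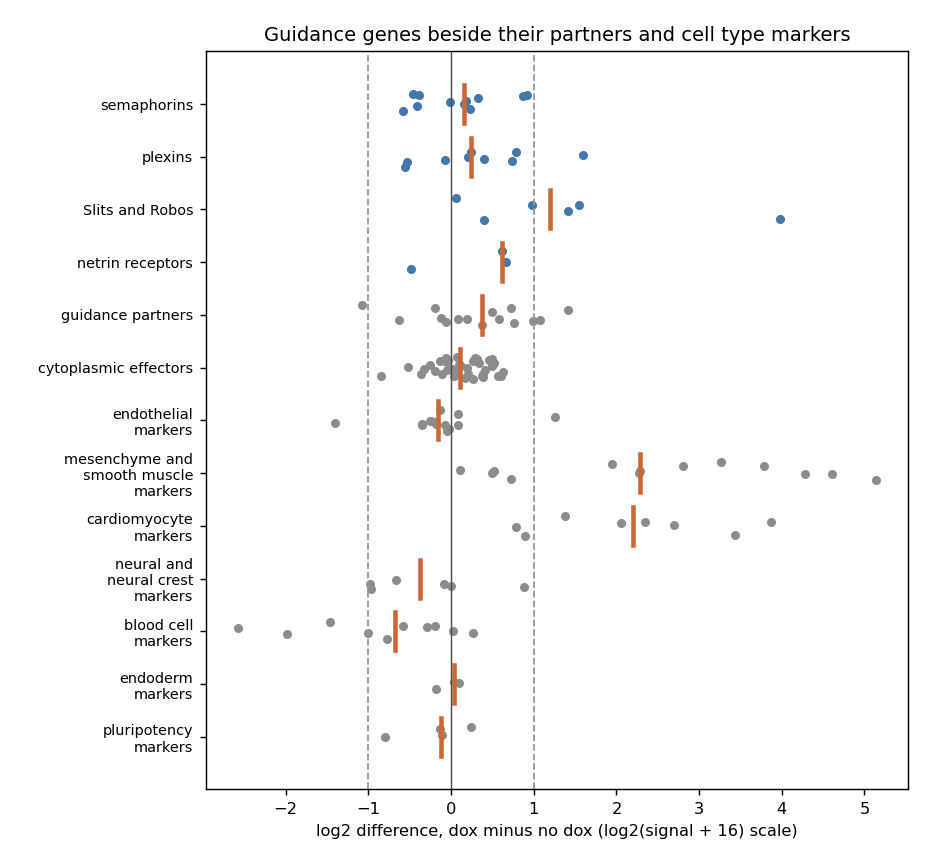
Log2 difference, dox minus no dox, of each gene past the signal filter (points, 1 per gene) in the guidance families (blue), their partners and effectors and the cell type marker lists (grey), with the list median as an orange bar. The median was 0.15 for semaphorins and 0.24 for plexins, -0.16 for endothelial markers and 2.29 for mesenchyme and smooth muscle markers, and no effector lies past the dashed 2-fold lines.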

How the data were processed

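Per the labels' protocols, biotin-labelled RNA was made from 100 ng of total RNA per sample for Affymetrix 3' arrays. The authors deposited linear signal intensities, 1 for each probe set on each array and none under 1. Their summarisation, centring and scaling are not given in the sources used here, and probe-level values and detection calls were not used here. Probe sets took their gene from the platform annotation. Those with 1 symbol (34945) were used, and those with several (932) or none (9160) were not. All 46 symbols matched the RefSeq table of GRCm38.p6 by Entrez number. No build is named for the arrays, so coordinates are given only for the RefSeq windows.

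Python 3.11.15 with pandas 2.3.3 and numpy 2.4.6 computed the log2 differences, and the calculation was tested on simulated data. The guidance genes, gene lists and settings were chosen with earlier results of these data known. All guidance genes may be named, with Mesp1, Kdr, Tek, Nrp1, Nrp2 and the 4 partners and 4 effectors of largest absolute difference. Srgap1, Srgap2, Eng, Cldn5, Cnn1 and Nppa were named after their values were seen. Alternatives changed the added constant, the signal filter, the scaling, the probe set read for a gene and the probe set suffixes allowed.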

Additional observations from a re-analysis of the deposited data

How the results depend on the processing

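The count of guidance genes 2-fold or more higher with dox was 4 with an added constant of 1 or 64. It was also 4 after quantile normalization, after scaling to the same median and with the mean over all probe sets of a gene. Leaving out all probe sets whose names end in _s_at, _x_at or _a_at gave 4 of 26 as well. The 4 genes were Plxna2, Robo3, Robo4 and Slit3 each time. Over all genes the share 2-fold or more higher was 4.43% to 6.07% under those settings. Without the signal filter, which added Robo2 and Sema4f, the guidance count was 6 of 46 (13.0%) beside 4.77% of all genes. With both signals at the median, which left out Robo3 and Slit3, it was 2 of 27 (7.41%, Plxna2 and Robo4) beside 3.82%. With the filter at the 75th percentile it was 1 of 15 (6.67%, Plxna2) beside 4.73%. None was 2-fold or more lower under any of these 9 settings. A changed filter cannot alter the log2 difference of a gene. Of 171 values of single guidance genes under the other alternatives 161 moved by less than 0.38 log2 units, the SD between probe sets, and 10 by more. Those 10 were values of Robo3 and Slit3 under another constant, and of Plxna1, Plxna4, Robo1, Robo3, Sema3e, Sema3f and Sema5a as a mean over probe sets. Many of the 161 had little or no room to move. A mean over probe sets cannot change a gene with 1 probe set. Leaving out suffixes changes a gene only where its brightest probe set carries one. Scaling to the same median moves most genes by nearly the same small amount. The 161 are therefore no measure of how robust the values are. No 2-fold difference changed sign, but some smaller ones did as a mean over probe sets. These were Plxna1 (0.20 to -0.48), Plxna4 (-0.53 to 0.14), Sema3f (-0.58 to 0.09), Sema6a (0.23 to -0.13) and Slit1 (0.06 to -0.26). Scaling to the same median moved the median of all genes from 0.05 to -0.13 and that of the guidance genes from 0.24 to 0.06. The ligands then had 6 higher and 8 lower instead of 9 and 5. No paired analysis was possible because each condition has 1 array. The number of arrays limits the precision, and signal over background could not be judged.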

Other observations

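Some partners of the guidance receptors that stayed below the median on both arrays also differed past 2-fold, and they are named after their values were seen. Met, a receptor kinase that associates with class B plexins, read 15.8 without dox and 108 with dox (log2 difference 1.96). Its other probe set differed little, at 16.8 and 21.2 (0.18). Rgma, a ligand of Neo1, read 1, the floor, and 39.1 (1.70). Srgap3, of the Slit-Robo GTPase activating family, read 47.8 and 123 (1.13). All were higher with dox, and no detection call is at hand for such dim signals.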
